A study of Mus musculus with 12 samples.

Results

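Genes of the activin pathway were followed in cultured mouse cortical neurons that expressed a fragment of huntingtin. The 10 genes are the activin subunits Inhba and Inhbb, the activin-binding protein Fst, the type I receptors Acvr1, Acvr1b and Acvr1c, the type II receptors Acvr2a and Acvr2b, the signal transducer Smad3 and the inhibitory Smad7. The genes were taken by symbol from the 41388 genes of the deposited tables, and 10 of 10 were found and passed the filter on low counts. The set was chosen by the CPM of Inhba, which was lower in the Htt-72Q libraries, so the Inhba difference is given as a description, without a test. The other 9 are described gene by gene with p-values adjusted over all genes tested, and nothing is read from their counts as a list.

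The study measured RNA, after removal of ribosomal RNA, in primary cortical neurons of Swiss Webster mouse embryos of embryonic day 16, with 3 groups of 4 libraries. All cultures received a lentivirus on day 5 in vitro, and RNA was taken on day 10. The groups received exon 1 of Htt in its mutant form (Htt-72Q, 72 glutamines), exon 1 in its wild-type form (Htt-25Q, 25 glutamines) or a control vector. The infection label reads "Empty vector" for 3 of the control vector libraries and "Control vector" for control vector 2. Exon 1 of huntingtin carries the glutamine repeat whose lengthening causes Huntington disease, and a virus that carries only this exon models the fragment and not the whole protein. The labels do not name the promoter in the vector or the share of infected cells. The labels do not say that the libraries of a group came from separate cultures, so the p-values measure only the spread between libraries.

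Activins are dimers of the inhibin beta subunits encoded by Inhba and Inhbb and belong to the TGF-beta superfamily of secreted ligands. They bind a type II receptor, ACVR2A or ACVR2B, which phosphorylates a type I receptor, chiefly ACVR1B and also ACVR1C. The active type I receptor phosphorylates SMAD2 and SMAD3, which enter the nucleus with SMAD4, whereas SMAD7 blocks the receptor and follistatin, encoded by Fst, binds activin outside the cell. In neurons Inhba is an activity-regulated gene that is induced by synaptic NMDA receptors and protects against excitotoxic death in rodents.

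Total counts were 12.4 to 20.04 M in Htt-72Q, 18.1 to 27.5 M in Htt-25Q and 12.7 to 23.4 M in control vector. The description of each library opens with a number (22, 24, 26, 27_1 or 27), whose meaning is not stated. It is taken here as the number of a preparation. Libraries with the same number deviated together from their group means. Preparations 22, 24 and 27_1 hold all 3 groups, 26 holds Htt-72Q 3 and control vector 3, and 27 holds Htt-25Q 4. Levels here and below are CPM, counts scaled to library sizes that were adjusted by TMM factors, except where RPKM is named. The mouse Htt gene lay at 128 to 213 CPM in Htt-72Q, 124 to 182 CPM in Htt-25Q and 89.2 to 235 CPM in control vector, with overlapping ranges. Neuronal markers were present throughout but lower with the mutant fragment. The summed CPM of 7 markers was 3988 to 4171 in Htt-72Q, 5450 to 6218 in Htt-25Q and 5802 to 6974 in control vector. Of the 7, 6 fell against control vector, where 13.7% of all genes did, and 5 against Htt-25Q, where 13.4% did. Astrocyte markers (6 genes) summed to 1062 to 1265, 987 to 1139 and 932 to 1233 CPM in Htt-72Q, Htt-25Q and control vector. Of these, 0 of 6 passed the test, where 23.2% of all genes passed against control vector and 22.5% against Htt-25Q. Fibroblast and mural markers (8 genes) summed to 9.53 to 17.7 CPM in Htt-72Q, against 16.4 to 34.0 in Htt-25Q and 14.2 to 43.9 in control vector, and Postn was the 1 of 3 tested that fell, in both comparisons. Their defining collagens Col1a1, Col1a2 and Col3a1 were too low to be tested. Of 5 inhibitory neuron markers, Gad1 and Dlx1 fell in both comparisons. In bulk RNA, fewer cells of a type and less RNA per cell cannot be told apart, and the part of these markers in the results below was not tested.

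Values of single libraries are given for libraries 1 to 4 of each group in that order. Differences are log2 fold changes of an edgeR quasi-likelihood fit of all 12 libraries over 14707 genes, with their SE and Benjamini-Hochberg adjusted p. In the comparison of Htt-72Q with control vector, 23.2% of all genes passed an adjusted p of 0.05, 13.7% lower and 9.44% higher. Of the 9 members other than Inhba, 4 fell (Fst, Acvr1, Acvr1c and Acvr2a), 0 rose and 5 did not pass. In the comparison of Htt-72Q with Htt-25Q, 22.5% of all genes passed, 13.4% lower and 9.07% higher, and 5 of the 9 members fell, Smad7 being added. These comparisons share the Htt-72Q libraries. With upper-quartile scaling, 1735 genes were higher and 1778 lower in Htt-72Q than in control vector, against 1389 and 2022 with TMM. Without the 4 libraries of preparations 27 and 27_1, an alternative chosen after seeing the data, 3 of the 9 members fell in each comparison, and the calls over all genes were also fewer, at 2432 against control vector and 1606 against Htt-25Q, where all 12 libraries gave 3411 and 3308.

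**Figure D1:**
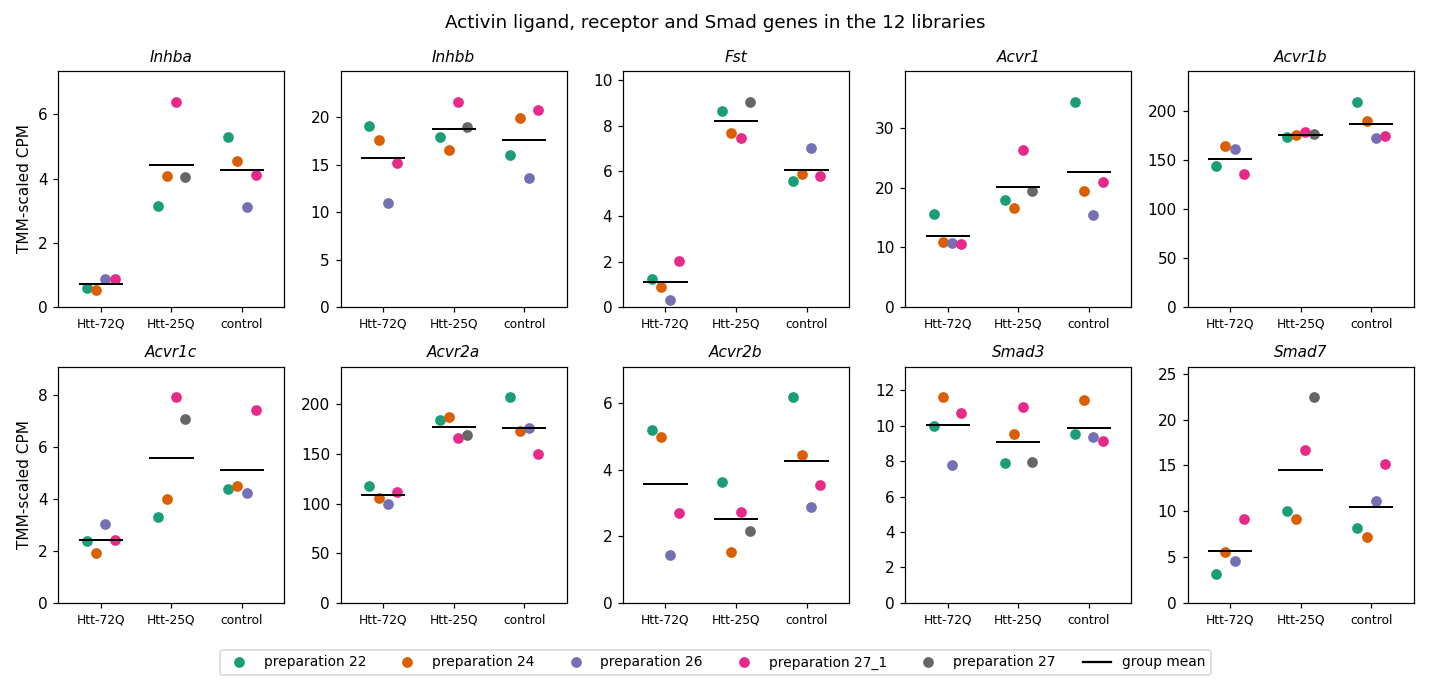
TMM-scaled CPM of the 10 genes in each of the 12 libraries, with Htt-72Q left, Htt-25Q in the middle and control vector right; points are libraries, coloured by preparation, and bars are group means. Inhba and Fst lie lower in each Htt-72Q library than in any library of the other groups, whereas Smad3 and Acvr2b overlap between groups.

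Of the activin subunits, Inhba was low in Htt-72Q and Inhbb did not pass the test. Inhba (ENSMUSG00000041324, chr13:16011851-16027211, plus strand, GRCm38), which encodes the subunit of activin A, had 0.591, 0.546, 0.877 and 0.871 CPM in Htt-72Q, against 3.16, 4.10, 6.40 and 4.04 in Htt-25Q and 5.28, 4.55, 3.13 and 4.10 in control vector. Each of the Htt-72Q libraries was lower than each of the other 8, and the Htt-25Q and control vector ranges overlapped. The means were 0.721 ± 0.177 CPM in Htt-72Q, against 4.43 ± 1.38 in Htt-25Q and 4.26 ± 0.902 in control vector (SD, n = 4 each). These levels rest on few reads, with 8 to 18 counts per Htt-72Q library, 71 to 171 per Htt-25Q library and 51 to 120 per control vector library. The log2 fold change of Inhba was -2.55 ± 0.30 for Htt-72Q against control vector and -2.60 ± 0.30 for Htt-72Q against Htt-25Q. Within preparations, Inhba was lower in Htt-72Q than in control vector in 4 of 4 (log2 differences of -3.16 to -1.83) and lower than in Htt-25Q in 3 of 3 (-2.91 to -2.42). Leaving out preparations 27 and 27_1 gave -2.70 and -2.44. Because the set was chosen by this fall of Inhba, these values describe it and do not test it.

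Inhbb (ENSMUSG00000037035, chr1:119415465-119422248, minus strand), which encodes the subunit of activin B, had 19.0, 17.6, 11.0 and 15.1 CPM in Htt-72Q, against 17.9, 16.5, 21.7 and 19.0 in Htt-25Q and 16.1, 19.9, 13.6 and 20.7 in control vector. The 3 ranges overlapped, and Htt-72Q 3 was the lowest library. Its log2 fold change was -0.16 ± 0.19 against control vector (edgeR adjusted p = 0.588) and -0.26 ± 0.19 against Htt-25Q (adjusted p = 0.368). The libraries were also split, at the widest gap in Ctnnd1 in these same data, into 2 classes that cross the groups. A term for class put Inhbb past the threshold against Htt-25Q (-0.50, edgeR adjusted p = 0.0284). Of these 2 groups, Htt-72Q 3 and Htt-25Q 1, 2 and 4 share 1 class, so class and this comparison are partly confounded. Per transcript length, in RPKM, the ratio of Inhbb to Inhba was 5.84 to 15.0 in Htt-72Q libraries, 1.58 to 2.64 in Htt-25Q and 1.42 to 2.35 in control vector. Its denominator is the gene that the set was chosen by, so the ratio is no separate result. It rests on 8 to 18 Inhba counts per Htt-72Q library.

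The promoters of the subunit genes are shown because one gene was low in Htt-72Q and the other was not past the threshold. Each window is RefSeq sequence on GRCm38.p6 from 250 bases before to 50 after the start of the gene, written 5′ to 3′ on the strand of the gene. The Inhba window is chr13:16011601-16011900 on the plus strand, and the Inhbb window is chr1:119422199-119422498 on the minus strand. Capitals mark a match to the MEF2 consensus, which begins 96 bases before the start, together with the overlapping TATAAA that begins 91 bases before it.
Inhba: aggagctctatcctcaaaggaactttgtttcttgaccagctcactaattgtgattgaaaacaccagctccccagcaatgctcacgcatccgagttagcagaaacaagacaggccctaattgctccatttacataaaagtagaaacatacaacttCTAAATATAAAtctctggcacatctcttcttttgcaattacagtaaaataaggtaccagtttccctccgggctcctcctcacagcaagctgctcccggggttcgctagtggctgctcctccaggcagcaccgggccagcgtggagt
Inhbb: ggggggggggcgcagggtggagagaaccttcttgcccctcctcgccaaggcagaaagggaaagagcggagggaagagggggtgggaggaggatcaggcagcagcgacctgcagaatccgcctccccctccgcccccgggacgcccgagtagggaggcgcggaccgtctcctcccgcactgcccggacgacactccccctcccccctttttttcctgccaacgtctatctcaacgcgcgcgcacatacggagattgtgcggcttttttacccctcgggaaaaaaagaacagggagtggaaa
The GC content is 47.7% in the Inhba window and 64.3% in the Inhbb window, and the median of all windows is 52.7%. Both strands were searched for the CRE TGACGTCA, the AP-1 site TGANTCA, the TATA box TATAAA, the MEF2 consensus, the CArG box and the Smad palindrome GTCTAGAC, a choice made with the Inhba sequence in view. Of 32851 windows, 1.79% hold the CRE, 7.81% the AP-1 site, 13.6% the TATA box, 3.19% the MEF2 consensus, 1.63% the CArG box and 0.213% the Smad palindrome. Windows were found for 8 of the 10 genes, and of these only the Inhba window held any of the 6 motifs. Because the motifs were chosen with the Inhba sequence in view, this does not set Inhba apart from the other members. These are matches of letters in a short window, and no binding was measured.

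Fst was the member with the widest tested difference. Fst (ENSMUSG00000021765, chr13:114452262-114458730, minus strand) encodes follistatin, a secreted protein that binds activin and keeps it from its receptors. It had 1.25, 0.887, 0.319 and 2.03 CPM in Htt-72Q, against 8.62, 7.68, 7.45 and 9.05 in Htt-25Q and 5.55, 5.86, 7.01 and 5.78 in control vector. The 3 groups did not overlap, with Htt-72Q lowest and Htt-25Q highest. The log2 fold change of Fst was -2.37 ± 0.34 against control vector (edgeR adjusted p = 0.000169) and -2.80 ± 0.34 against Htt-25Q (adjusted p = 3.97e-05). It was lower in Htt-72Q in 4 of 4 preparations against control vector (-4.46 to -1.51) and in 3 of 3 against Htt-25Q (-3.11 to -1.87). The antagonist was low in the same libraries as the ligand subunit Inhba. Their ratio per length, Inhba to Fst, was 0.506 to 3.25 in Htt-72Q, 0.433 to 1.01 in Htt-25Q and 0.526 to 1.12 in control vector. The value of 3.25 is that of Htt-72Q 3, with 11 Inhba and 4 Fst counts. The numerator is the gene that the set was chosen by, so the overlap of these ranges is no separate result. Whether the balance of ligand and antagonist was kept was not tested. Fst had 4 to 42 counts per Htt-72Q library.

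Of the type I receptors, 2 passed the test in both comparisons and 1 in neither. Of all genes, 23.2% passed against control vector and 22.5% against Htt-25Q. Per length, Acvr1b was the most abundant member receptor in each group, at 35.5 RPKM in Htt-72Q, 39.3 RPKM in Htt-25Q and 41.3 RPKM in control vector. Acvr1 stood at 2.57, 4.09 and 4.57 RPKM in Htt-72Q, Htt-25Q and control vector, and Acvr1c at 0.270, 0.588 and 0.539 RPKM.

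Acvr1b (chr15:101174067-101213679, plus strand) encodes ALK4, the main type I receptor of activin. It had 144, 164, 161 and 136 CPM in Htt-72Q, against 173, 175, 179 and 177 in Htt-25Q and 210, 189, 172 and 174 in control vector. Separate ranges were found for 23.7% of all genes against control vector and 26.7% against Htt-25Q. For Acvr1b, each Htt-72Q library was below each of the other 8. The difference was small, at -0.30 ± 0.10 against control vector (edgeR adjusted p = 0.0504) and -0.22 ± 0.10 against Htt-25Q (adjusted p = 0.155). DESeq2 gave an adjusted p of 0.0181 for the first of these, the lowest of the 21 alternatives, which ran up to 0.16.

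Acvr1c (chr2:58267453-58357895, minus strand) encodes ALK7, a type I receptor for activin B and related ligands. It had 2.36, 1.91, 3.03 and 2.42 CPM in Htt-72Q, against 3.29, 4.0, 7.90 and 7.06 in Htt-25Q and 4.36, 4.49, 4.24 and 7.39 in control vector. The Htt-72Q range lay below both others, and the libraries of preparations 27 and 27_1 were the highest of Htt-25Q and of control vector. Acvr1c fell by 1.07 ± 0.31 on the log2 scale against control vector (edgeR adjusted p = 0.0217) and by 1.20 ± 0.31 against Htt-25Q (adjusted p = 0.0117). The call against control vector was lost without Htt-72Q 2 (-0.99, adjusted p = 0.0622), Htt-72Q 4 (-1.05, 0.0511) or control vector 4 (-0.85, 0.0674). Without preparations 27 and 27_1 it was -0.85 (adjusted p = 0.0584) against control vector and -0.59 (adjusted p = 0.253) against Htt-25Q.

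Acvr1 (chr2:58388644-58567157, minus strand) encodes ALK2, a type I receptor used mainly by BMPs. It had 15.6, 11.0, 10.8 and 10.5 CPM in Htt-72Q, against 17.9, 16.6, 26.3 and 19.5 in Htt-25Q and 34.4, 19.4, 15.5 and 21.0 in control vector. Htt-72Q lay below Htt-25Q throughout, and against control vector Htt-72Q 1 was just above control vector 3. Acvr1 fell by 0.92 ± 0.24 on the log2 scale against control vector (edgeR adjusted p = 0.0128) and by 0.75 ± 0.24 against Htt-25Q (adjusted p = 0.0374). Leaving out Htt-72Q 2, 3 or 4 or Htt-25Q 3 or 4 ended the call against Htt-25Q, with log2 values of -0.77 to -0.59 and adjusted p of 0.0717 to 0.117. Without preparations 27 and 27_1 the values were -0.91 (adjusted p = 0.0685) against control vector and -0.47 (adjusted p = 0.421) against Htt-25Q.

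Of the type II receptors, the more abundant one fell. Acvr2a (ENSMUSG00000052155, chr2:48814109-48903269, plus strand), the receptor that binds activin first, had 118, 106, 99.2 and 111 CPM in Htt-72Q, against 185, 187, 166 and 169 in Htt-25Q and 207, 173, 176 and 150 in control vector. No Htt-72Q library reached the lowest of the other 8. Acvr2a fell by 0.70 ± 0.12 on the log2 scale against both groups (edgeR adjusted p = 0.00054 against control vector and 0.000553 against Htt-25Q). It was lower within 4 of 4 preparations against control vector (-0.83 to -0.43) and 3 of 3 against Htt-25Q (-0.82 to -0.57), and the call held in each of the 21 alternatives. Orc4 overlaps it on the opposite strand, and the labels do not say whether counting used strand.

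Acvr2b (chr9:119402444-119433501, plus strand), the paralogous type II receptor, stood at 2.13 RPKM in Htt-72Q, 1.42 RPKM in Htt-25Q and 2.37 RPKM in control vector, against 19.8, 30.7 and 30.3 RPKM for Acvr2a in the same groups. It had 5.19, 4.98, 1.43 and 2.71 CPM in Htt-72Q, against 3.64, 1.54, 2.73 and 2.16 in Htt-25Q and 6.17, 4.43, 2.88 and 3.54 in control vector. The 3 ranges overlapped, and libraries 1 and 2 of Htt-72Q and of control vector were the higher ones of their groups. The log2 fold change was -0.25 ± 0.38 against control vector (edgeR adjusted p = 0.679) and 0.50 ± 0.39 against Htt-25Q (adjusted p = 0.388).

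Smad3 (chr9:63646767-63757994, minus strand), which carries the activin and TGF-beta signal to the nucleus, showed no difference beyond the spread. It had 9.98, 11.6, 7.81 and 10.7 CPM in Htt-72Q, against 7.88, 9.54, 11.0 and 7.97 in Htt-25Q and 9.51, 11.5, 9.39 and 9.16 in control vector. Its log2 fold change was 0.02 ± 0.18 against control vector (edgeR adjusted p = 0.94) and 0.14 ± 0.18 against Htt-25Q (adjusted p = 0.619).

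Smad7 (ENSMUSG00000025880) encodes an inhibitory Smad that TGF-beta and activin signalling induce and that in turn blocks the receptors. It had 3.15, 5.53, 4.62 and 9.19 CPM in Htt-72Q, against 10.01, 9.12, 16.7 and 22.4 in Htt-25Q and 8.15, 7.18, 11.2 and 15.2 in control vector. The highest library of each group came from preparation 27 or 27_1, and Htt-72Q 4 reached into both other ranges. Smad7 fell by 1.36 ± 0.36 on the log2 scale against Htt-25Q (edgeR adjusted p = 0.0139), and this call was lost without Htt-25Q 4 (-1.08, adjusted p = 0.0534). Against control vector it did not pass (-0.87 ± 0.36, adjusted p = 0.0956). With preparation as a block the difference against control vector was -0.91 (adjusted p = 0.00361). Without Htt-72Q 4 it was -1.22 (adjusted p = 0.0299), and without preparations 27 and 27_1 it was -1.0 (adjusted p = 0.0311). Leaving out 1 library in turn gave -1.22 to -0.64 against control vector, with edgeR adjusted p of 0.0299 to 0.236. Within preparations, Smad7 was lower in Htt-72Q than in control vector in 4 of 4 (-1.37 to -0.38) and lower than in Htt-25Q in 3 of 3 (-1.67 to -0.72).

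**Figure D2:**
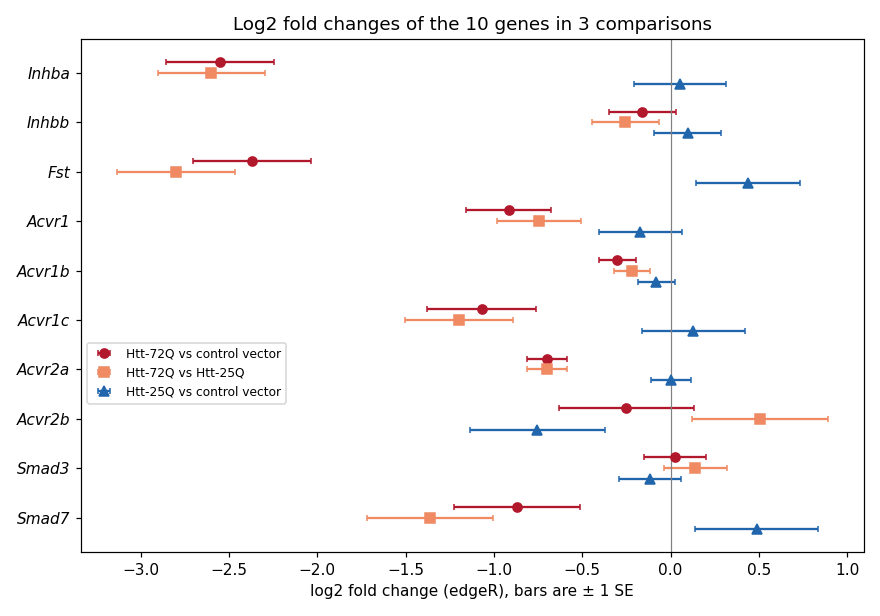
Log2 fold changes of the 10 genes with SE bars for Htt-72Q against control vector, Htt-72Q against Htt-25Q and Htt-25Q against control vector (edgeR). Inhba (-2.55 and -2.60) and Fst (-2.37 and -2.80) lie farthest left in the first 2 comparisons, and in the third the members lie between -0.76 and 0.49.

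No member passed the test between the wild-type fragment and control vector. In that comparison 0% of all genes passed the edgeR test, 0 of 10 members among them, and 129 of 14707 genes but no member had an unadjusted p under 0.05. DESeq2 also called 0 genes. Inhba differed by 0.05 ± 0.26 on the log2 scale between Htt-25Q and control vector (95% interval -0.50 to 0.61). Acvr2a differed by less than 0.01 (95% interval -0.24 to 0.24), and Fst by 0.44 ± 0.30 (-0.20 to 1.07, adjusted p = 1). Fst was the 1 member whose Htt-25Q and control vector ranges did not overlap, where 0.993% of all genes did not, and it was higher in Htt-25Q in 3 of 3 preparations (0.36 to 0.64). The widest interval was that of Acvr2b (-1.57 to 0.06). The intervals cover the difference of these libraries and do not show that the groups are alike.

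Other genes of the pathway were taken from a list of 61 ligands, antagonists, receptors, Smads, partners and targets, of which 46 were tested. Against control vector 13 fell, 2 rose and 31 did not pass, where 13.7% of all genes were lower and 9.44% higher, and the median log2 fold change was -0.17, against 0.03 over all genes. Against Htt-25Q 14 fell, 2 rose and 30 did not pass, where 13.4% of all genes were lower and 9.07% higher, and the median was -0.19, against 0.03 over all genes. Between Htt-25Q and control vector 0 of 46 passed. Without preparations 27 and 27_1 the list had 12 called genes against control vector and 7 against Htt-25Q.

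**Figure D3:**
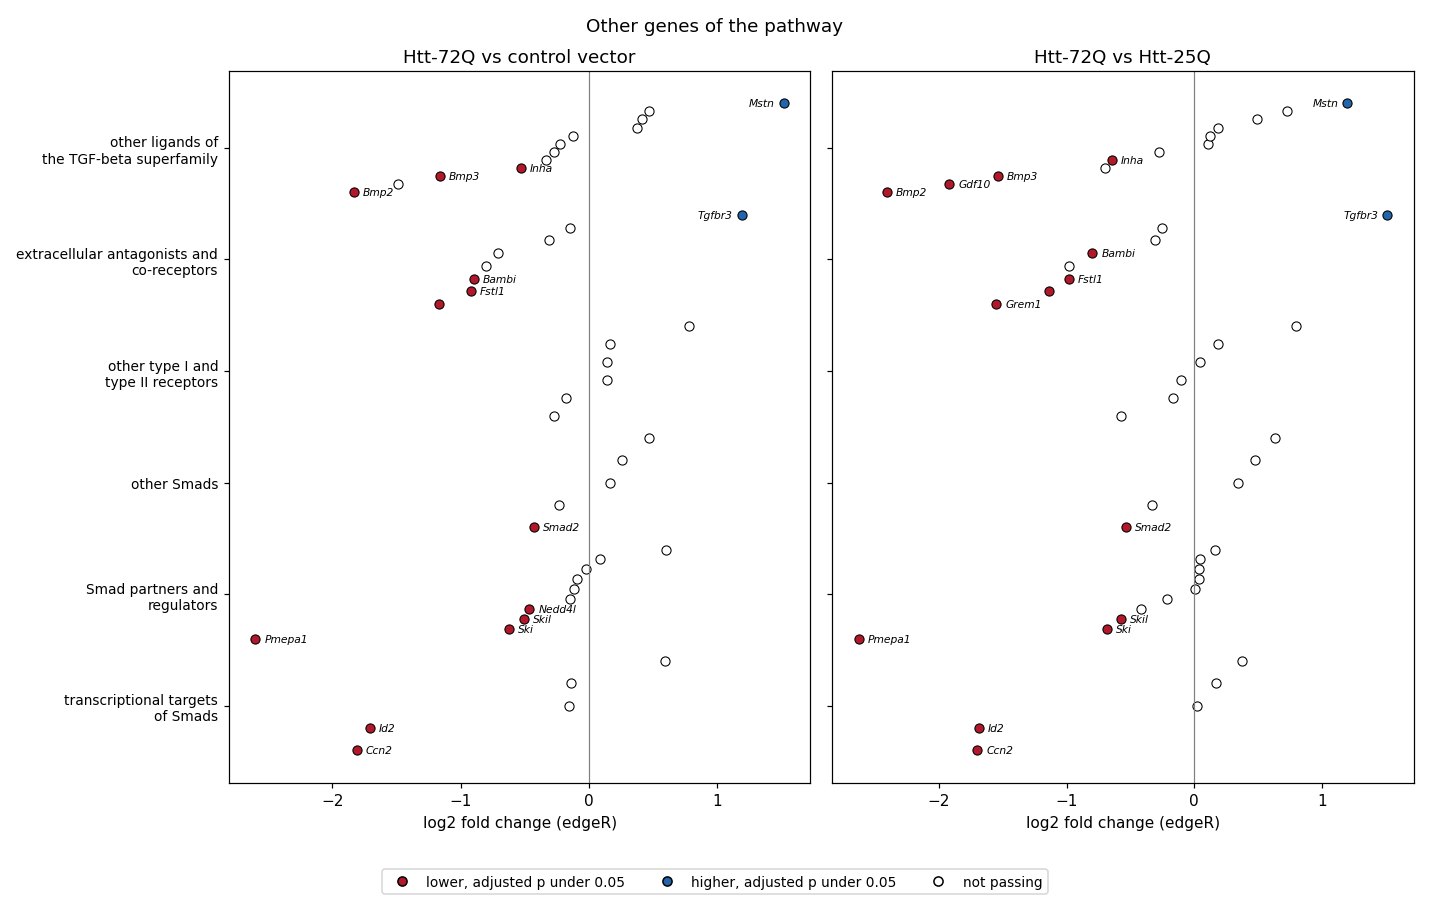
Log2 fold changes (edgeR) of the 46 tested pathway genes by role, Htt-72Q against control vector left and against Htt-25Q right; filled points have an adjusted p under 0.05, most of them named. Pmepa1 lies farthest left (-2.60 and -2.63), and the other type I and type II receptors hold no filled point.

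Among Smad regulators and targets, the difference was widest in Pmepa1, which encodes a membrane protein that TGF-beta induces and that binds and restrains receptor-activated Smads. Pmepa1 had 3.87, 5.26, 3.83 and 5.76 CPM in Htt-72Q, against 21.1, 21.4, 34.6 and 39.4 in Htt-25Q and 37.3, 21.7, 22.8 and 32.7 in control vector. The Htt-72Q range lay far below the others, with log2 fold changes of -2.60 ± 0.26 against control vector (edgeR adjusted p = 9.52e-06) and -2.63 ± 0.26 against Htt-25Q (adjusted p = 9.03e-06). Id2, which encodes an inhibitor of basic helix-loop-helix factors that BMP and TGF-beta signals regulate, averaged 24.6 ± 6.19 CPM in Htt-72Q, against 79.8 ± 21.1 in Htt-25Q and 80.9 ± 23.6 in control vector. It fell by 1.71 ± 0.24 against control vector (adjusted p = 0.000147). The related Id1 (-0.15), Id3 (-0.14) and Id4 (0.59) did not pass against control vector. Chosen after their values were seen, Ski (-0.63, adjusted p = 0.00301) and Skil (-0.51, adjusted p = 0.00994), which encode corepressors of Smads, fell against control vector too. Smad2, the other transducer of activin signals and also picked after its values were seen, averaged 39.4 ± 6.53 CPM in Htt-72Q, against 57.1 ± 1.72 in Htt-25Q and 53.2 ± 5.55 in control vector. Smad2 fell by 0.43 ± 0.13 against control vector (adjusted p = 0.0311) and by 0.53 against Htt-25Q (adjusted p = 0.0107), where Smad3 did not pass. Whether the 2 Smads differ in their change was not tested.

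Of the 8 tested antagonists and co-receptors, 3 fell and 1 rose against control vector, where 13.7% of all genes were lower and 9.44% higher. Fstl1, which encodes a secreted relative of follistatin, averaged 38.4 ± 6.38 CPM in Htt-72Q, against 76.0 ± 7.76 in Htt-25Q and 72.8 ± 13.7 in control vector, with a log2 fold change of -0.92 ± 0.16 against control vector (edgeR adjusted p = 0.000761). The genes that rose, named after their values were seen, were Tgfbr3 and Mstn. Tgfbr3, the betaglycan co-receptor that lets inhibin oppose activin, had means of 3.87, 1.36 and 1.70 CPM in Htt-72Q, Htt-25Q and control vector (1.19 ± 0.31 against control vector, adjusted p = 0.0114). Mstn, the ligand myostatin, had means of 3.13, 1.36 and 1.12 CPM (1.52 ± 0.36, adjusted p = 0.0071). Inha, the inhibin alpha subunit that pairs with the beta subunits to form inhibin, was also named after its values were seen. It averaged 12.2 ± 1.42 CPM in Htt-72Q, against 19.1 ± 2.41 in Htt-25Q and 17.6 ± 1.81 in control vector (-0.53, adjusted p = 0.0196). Of the 6 other type I and type II receptors, 0 passed in either comparison. Over all genes, 23.2% passed against control vector and 22.5% against Htt-25Q.

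Inhba is 1 of a set of activity-regulated survival genes described in rodent neurons, and 7 of 8 others of the set were tested (Ifi202b had 4 counts in all). Those called against control vector did not move one way. Btg2 (0.59 ± 0.18, edgeR adjusted p = 0.0276) and Serpinb2 (2.25 ± 0.78, adjusted p = 0.0489) rose and Npas4 fell (-1.76 ± 0.57, adjusted p = 0.0364). The other 4 did not pass, where 23.2% of all genes passed. Serpinb2 had 0 to 6 counts per control vector library and 6 to 19 per Htt-72Q library, and its ranges in CPM overlapped. Npas4, an activity-dependent transcription factor of neurons, was lower in Htt-72Q in 4 of 4 preparations (-2.42 to -1.46). Against Htt-25Q, Npas4 (-2.44 ± 0.57, edgeR adjusted p = 0.00654) and Nr4a1 (-1.51 ± 0.46, adjusted p = 0.03), an immediate early nuclear receptor, fell. The other 5 did not pass, where 22.5% of all genes passed. Preparations 27 and 27_1 stood high for part of this set. Gadd45b, for one, had 22.6 CPM in Htt-72Q 4, 38.0 and 42.0 CPM in Htt-25Q 3 and 4, and 40.01 CPM in control vector 4.

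**Figure D4:**
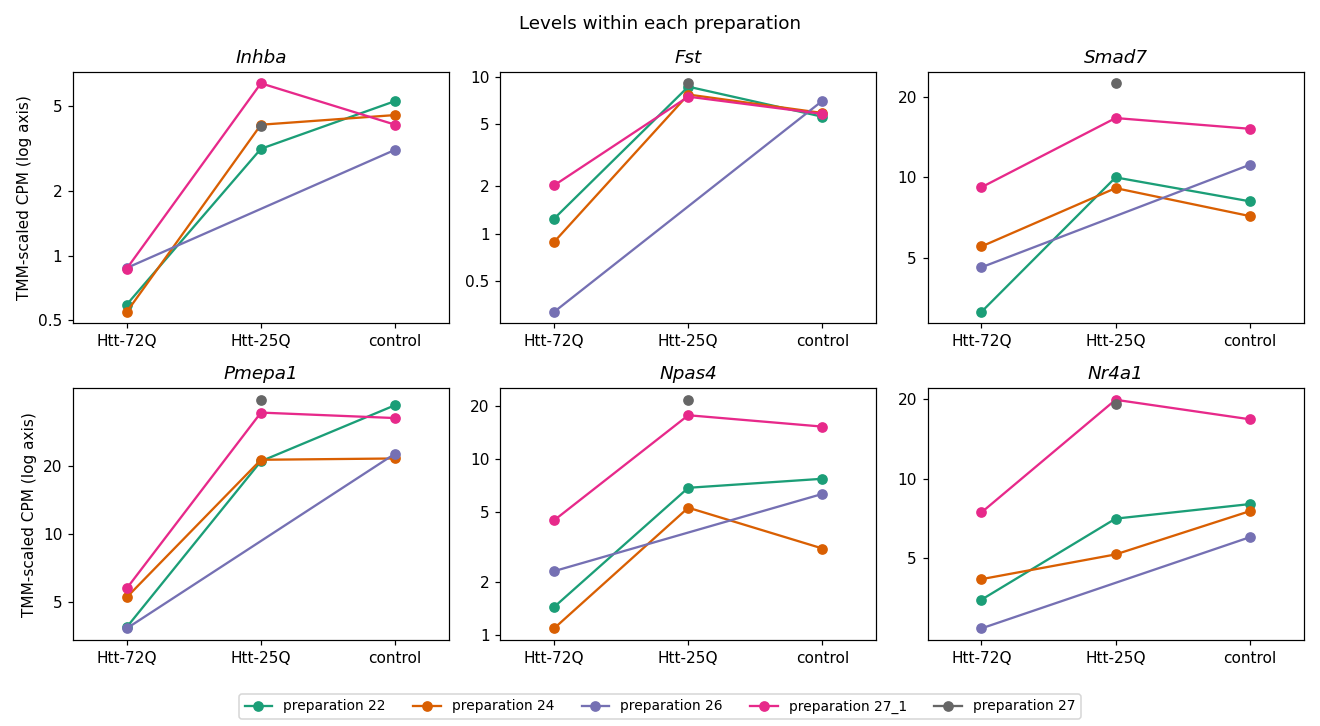
TMM-scaled CPM (log axis) of Inhba, Fst, Smad7, Pmepa1, Npas4 and Nr4a1 in each library, with libraries of 1 preparation in 1 colour and joined by a line, Htt-72Q left, Htt-25Q in the middle and control vector right. In each preparation with an Htt-72Q library, that library is the lowest of its preparation for each of the 6 genes. The genes drawn all have a lower mean in Htt-72Q than in both other groups, so this is no separate result. Of the tested survival genes not drawn, Btg2 was lower than in control vector in 0 of 4 preparations and Serpinb2 in 0 of 3. Atf3, Gadd45b and Gadd45g were lower in 1 of 4. Preparation 27_1 lies highest for Smad7, Npas4 and Nr4a1 among the 4 joined preparations.

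Across the 12 libraries, after removal of the group means, the genes whose log2 CPM was most like that of Inhba included Vps13c (r = 0.949), Dgki (0.925), Apba1 (0.869) and Lonrf1 (0.844), of 12387 genes ranked. These values describe libraries that share preparations and classes. Their group differences were not alike: Apba1 fell against control vector (-0.97, edgeR adjusted p = 4.03e-05), and Vps13c (0.11, adjusted p = 0.62) did not pass. Among the members, Acvr1c (0.576) and Acvr1 (0.507) were nearest to Inhba, and Fst stood at -0.212.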

How the data were processed

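Per the labels, RNA of 12 libraries of cortical neurons was depleted of ribosomal RNA, and each library was sequenced in 2 lanes that were merged. STAR 2.0.4b, Subread, featureCounts 1.45 and GRCm38 are named, without roles, in the submitters' processing notes. No source used here gives strand, the treatment of multiply mapped reads or the annotation release. The deposited files hold counts per gene, and the authors also deposited CPM and RPKM (that value divided by gene length in kilobases), which follow from the counts within 5.09e-10. Counts were fitted with edgeR 4.0.16 (R 4.3.3): TMM factors, filterByExpr with a minimum count of 10, 1 quasi-likelihood fit with 9 residual degrees of freedom, two-sided tests and Benjamini-Hochberg adjustment over 14707 genes. SE is the log2 fold change divided by the root of F. Within-preparation values are log2 differences of TMM-scaled CPM. RPKM comparisons between genes use the gene models of the deposited files. At the 3′ end, the GENCODE M21 model runs 4410 bases further for Inhba and 1494 bases further for Acvr2b.

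The groups come from the titles. The members and lists were chosen with earlier results of these data known. The numbers that open the descriptions, taken as preparations, pair the samples. Of pairs of libraries from different groups with the same number, 10 of 10 had a correlation of residuals above 0.1. The median was 0.282, against -0.0724 for other pairs between groups. The genes named are the members, at most 4 called genes of the pathway list with the smallest p per comparison, the tested survival genes and the 5 genes most like Inhba. Some genes that meet this rule are not reported here by name, and list counts include them. Alternatives were DESeq2 1.42.0, RLE and upper-quartile scaling, no filter, fits of 2 groups, blocks by title number or preparation, a term for library class, each library left out, and both 27 preparations left out. No 2 libraries agreed within sampling noise. Counting error is large for genes of few counts.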

Additional observations from a re-analysis of the deposited data

Results flagged for a closer look

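Of 99 sets of 4 libraries examined, 12 had 1 library that stood apart from the other 3 by more than Dixon's critical value at 95%, where chance flags about 1 in 20. Among the members, Acvr1 was high in Htt-72Q 1 (15.6 CPM, the others 10.5 to 11.0), Acvr1c was high in control vector 4 (7.39 CPM, the others 4.24 to 4.49) and Smad3 was high in control vector 2 (11.5 CPM, the others 9.16 to 9.51).

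In Htt-72Q 4, Id2 (33.9 CPM, the others 21.2 to 21.7) and Bmp3 (6.58 CPM, the others 3.11 to 3.41) stood high. In Htt-72Q 3, Inha stood high (14.3 CPM, the others 11.2 to 11.6). In control vector 4, Mstn (1.93 CPM, the others 0.793 to 0.897), Gdf10 (12.8 CPM, the others 5.14 to 5.70), Atf3 (14.5 CPM, the others 2.55 to 3.68), Gadd45b (40.01 CPM, the others 2.69 to 6.11) and Gadd45g (66.2 CPM, the others 15.1 to 19.9) stood high. Tgfbr3 was low in control vector 1 (1.01 CPM, the others 1.87 to 2.01). Htt-72Q 4 and control vector 4 both come from preparation 27_1.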

How the results depend on the processing

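No member's call changed sign in the 21 alternatives. Over all members, comparisons and alternatives, 13 calls were lost and 10 were gained. Leaving out 1 library in turn gave 2671 to 3265 genes past the threshold for Htt-72Q against control vector, with 3 to 5 members and 10 to 16 pathway genes. For Htt-72Q against Htt-25Q it gave 2293 to 3902 genes, 3 to 5 members and 11 to 19 pathway genes. The 3 members came without Htt-25Q 4. Without preparations 27 and 27_1, an alternative chosen after seeing the data, 1606 genes, 3 members and 7 pathway genes passed against Htt-25Q, with 2 Htt-25Q libraries left. With preparation as a replicate block, 4490 genes passed against control vector and 3120 against Htt-25Q, and among the members only the Smad7 call against control vector changed. With title number as a block the numbers were 3807 and 3739. In Htt-25Q against control vector, 0 genes passed in each alternative. For Inhba and Fst in Htt-72Q, precision is limited by few counts.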
